A study of Homo sapiens with 18 samples.

Results

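The Ikaros family of zinc finger genes was described across HL-60 and MOLM-13 leukaemia cells treated with demethylating drugs. Its 5 members were chosen by gene symbol: IKZF1 (NCBI Gene ID 10320), which encodes Ikaros, IKZF2 (22807, Helios), IKZF3 (22806, Aiolos), IKZF4 (64375, Eos) and IKZF5 (64376, Pegasus). All 5 were among the 17110 genes listed for HL-60, and 4 of the 5, all but IKZF3, were among the 17475 genes listed for MOLM-13. The family was selected on IKZF2, because its level and its drug effect differed most between the lines. The differences of IKZF2 from DMSO and between the lines are therefore given as values, with no test.

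HL-60 is a human acute myeloid leukaemia line with promyelocytic features, and MOLM-13 is a human acute myeloid leukaemia line with monocytic features that carries a KMT2A-MLLT3 fusion. Each line received the solvent dimethyl sulfoxide (DMSO), decitabine (DAC) or NTX-301 for 48 h, up to day 2, with 3 replicates in each of 6 groups and 18 samples in all. Decitabine is built into DNA in place of deoxycytidine and holds DNA methyltransferases there; NTX-301 inhibits the same enzymes. The concentration stated in the labels was 30 nM in HL-60 cells and 15 nM in MOLM-13 cells, and the wording can be read as that of DAC only or of either drug. Line and stated concentration cannot be told apart, and the doses of both drugs within a line may or may not match. Replicates were wells plated in triplicate, so p-values measure the spread between these samples, which may be technical. Stranded total RNA libraries were sequenced, and each file held 1 normalized log2 value per gene. The values appear to have been normalized separately for each line. Read depth per sample was unknown.

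Ikaros proteins bind DNA through zinc fingers near one end and pair with each other through zinc fingers near the other end. Ikaros, Helios, Aiolos and Eos recognise a GGGAA core, recruit the NuRD, SIN3 and CtBP repressor complexes, and are best known from lymphocytes; Pegasus is the most divergent member. Ikaros also acts in blood stem cells and myeloid precursors, Helios in regulatory T cells, and thalidomide analogues direct Ikaros and Aiolos to the ubiquitin ligase that holds cereblon.

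Because both drugs act on CpG methylation, the bases just before the annotated starts of IKZF2 are shown beside those of IKZF1, with CpG dinucleotides in capitals. The windows are the 250 bases upstream of a start, read 5′ to 3′ on the gene's strand, from RefSeq on GRCh38.p14. They were chosen after the expression values were seen, and no methylation was measured. IKZF2 lies on the minus strand of chromosome 2, with 1 window at chr2:213152457-213152706 and the other at chr2:213150438-213150687. The IKZF1 window is at chr7:50304466-50304715 on the plus strand.
IKZF2 window 1: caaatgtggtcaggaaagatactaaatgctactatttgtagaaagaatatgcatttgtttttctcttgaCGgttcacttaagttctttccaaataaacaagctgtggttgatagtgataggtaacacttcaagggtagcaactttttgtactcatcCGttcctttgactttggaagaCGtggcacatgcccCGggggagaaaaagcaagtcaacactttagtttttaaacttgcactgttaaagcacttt
IKZF2 window 2: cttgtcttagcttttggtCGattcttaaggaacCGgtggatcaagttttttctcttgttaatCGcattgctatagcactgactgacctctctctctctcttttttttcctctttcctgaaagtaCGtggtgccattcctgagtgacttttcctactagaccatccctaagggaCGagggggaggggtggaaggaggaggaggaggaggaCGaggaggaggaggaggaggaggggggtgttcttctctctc
IKZF1 window 1: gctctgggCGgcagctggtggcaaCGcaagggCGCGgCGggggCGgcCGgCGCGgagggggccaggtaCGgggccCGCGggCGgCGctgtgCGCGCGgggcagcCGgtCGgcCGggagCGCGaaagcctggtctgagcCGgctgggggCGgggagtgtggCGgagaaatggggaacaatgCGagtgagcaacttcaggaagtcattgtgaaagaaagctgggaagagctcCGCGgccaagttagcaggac

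The IKZF2 windows held 4 and 6 CpGs in 250 bases, and the first of them had a GC content of 38.0%. The median over 35116 such windows of 27305 genes was 11 CpGs, with quartiles of 3 and 23. The IKZF1 window shown held 28 CpGs (GC content 71.2%), the most of any IKZF1 window. The other windows of IKZF1 held 3 and 0 CpGs (GC content 45.2% and 32.8%), and those of IKZF4 on chromosome 12 held 15, 5 and 3. Windows were matched for 4 of the 5 members, all but IKZF3 on chromosome 17. The letters GGGAA, searched on both strands, were in neither IKZF2 window and in the shown IKZF1 window 2 times, and 59.0% of all windows held them. A match describes these letters only.

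IKZF2, which encodes Helios, read far lower in MOLM-13 than in HL-60. On the log2 scale its 3 HL-60 DMSO samples read 11.20, 11.17 and 11.19, and its 3 MOLM-13 DMSO samples read 6.43, 6.39 and 6.32. The means were 11.19 ± 0.017 and 6.38 ± 0.051 (SD, n = 3 each), a difference of −4.81 (MOLM-13 minus HL-60). Since the lines appear to have been normalized apart, the gene's rank within each sample was read too. IKZF2 stood between percentiles 65.5 and 65.9 of 15517 shared genes in the HL-60 DMSO samples. In the MOLM-13 DMSO samples it stood between 21.8 and 22.5.

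IKZF2 read higher with both drugs in HL-60, by like amounts. The DAC samples read 12.63, 12.67 and 12.64, and the NTX-301 samples 12.67, 12.66 and 12.61. All 6 treated samples lay above all 3 DMSO samples, and the treated groups overlapped each other. The difference from DMSO was 1.46 under DAC and 1.46 under NTX-301, or 2.75-fold each, from a linear mean of 2331 to 6401 and 6403. The gene moved to percentiles 86.2 to 86.6 under DAC and 86.1 to 86.8 under NTX-301.

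In MOLM-13 the reading of IKZF2 stayed near its DMSO level. The DAC samples read 6.37, 6.48 and 6.31, and the NTX-301 samples 6.42, 6.52 and 6.47. All 3 groups overlapped. The difference from DMSO was 0.0091 under DAC and 0.090 under NTX-301. The DAC value turned to −0.058 after quantile normalization, so it carries no direction. Set against HL-60, the effect was smaller by −1.45 under DAC and −1.37 under NTX-301 (MOLM-13 minus HL-60).

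**Figure D1:**
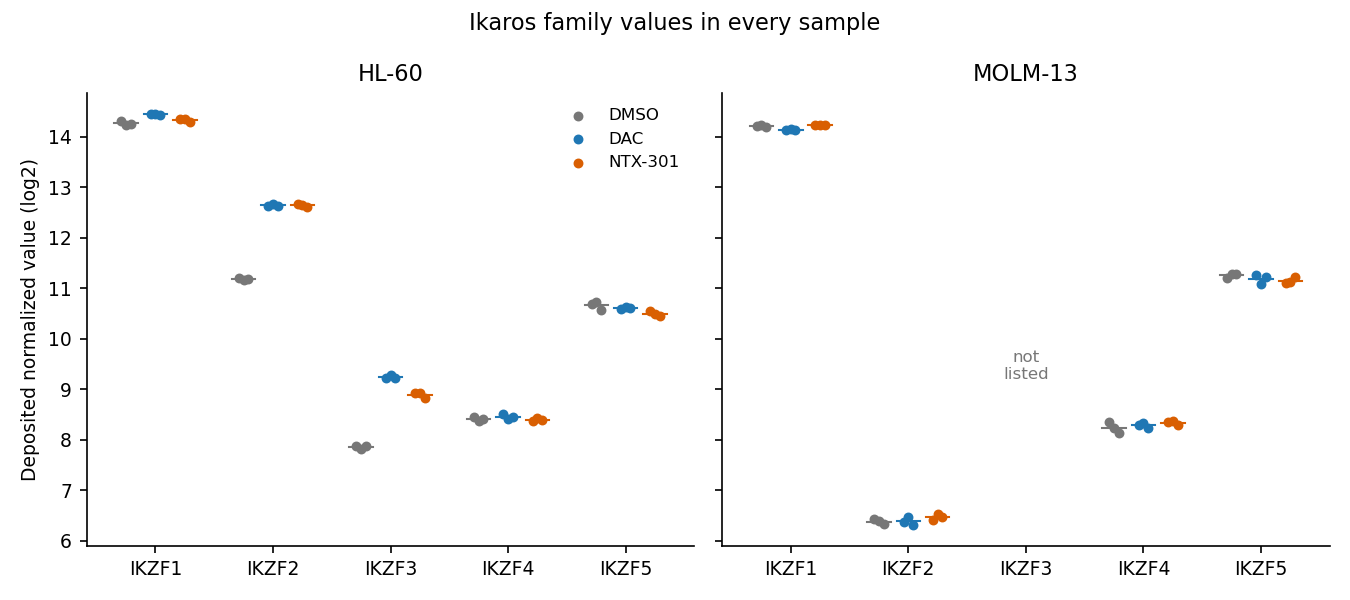
Deposited normalized log2 value of each Ikaros family gene in every sample (points, 3 per group) with the group mean (line), for HL-60 and MOLM-13. IKZF2 stands at 11.19 in HL-60 DMSO, near 12.64 with either drug and near 6.4 in all MOLM-13 groups. Levels are best compared within a gene, since any scaling to gene length is not given in the sources used.

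Low values in these tables are drawn towards their own mean, so the small MOLM-13 differences were read against genes of like level. Of 1250 MOLM-13 genes whose mean lay within 0.5 of that of IKZF2, the median absolute difference from DMSO was 0.076 under DAC and 0.093 under NTX-301. Their differences reached from −0.75 to 0.51 under DAC and from −0.74 to 0.49 under NTX-301. In HL-60, 2067 genes lay within 0.5 of IKZF2, with a median absolute difference of 0.056 under DAC and 0.078 under NTX-301. The differences of those genes ran from −0.54 to 0.78 under DAC and from −2.09 to 1.36 under NTX-301. The place of IKZF2 among them is a description, since its drug effect was used to select the family.

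IKZF3, which encodes Aiolos, the partner of Ikaros in maturing lymphocytes, rose in HL-60 with both drugs. Its DMSO samples read 7.89, 7.83 and 7.88, its DAC samples 9.22, 9.28 and 9.23, and its NTX-301 samples 8.93, 8.93 and 8.83. The 3 groups did not overlap, with DMSO lowest and DAC highest. The rise was 1.38 ± 0.039 under DAC (log2 difference ± SE, n = 3 per group; 2.60-fold; limma adjusted p = 2.127e-11) and 1.03 ± 0.039 under NTX-301 (2.04-fold; limma adjusted p = 2.389e-10). Those were the 5th and the 20th highest differences of 17046. The linear mean went from 233 to 606 and 476. Of 1138 HL-60 genes within 0.5 of its level, 1 had a higher difference under DAC and 6 under NTX-301. IKZF3 was not listed for MOLM-13, so no value is given there; a gene left out of the table has no level that could be compared.

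IKZF1, which encodes Ikaros, had nearly the same reading in both lines and moved little. In HL-60 its DMSO samples read 14.31, 14.23 and 14.26, its DAC samples 14.45, 14.45 and 14.44, and its NTX-301 samples 14.36, 14.35 and 14.30. The DAC samples lay above all others, while the NTX-301 and DMSO samples overlapped. The gene rose by 0.18 ± 0.022 under DAC (1.13-fold; limma adjusted p = 5.377e-05). It rose by 0.068 ± 0.022 under NTX-301 (limma adjusted p = 0.02597). That second call was lost with every sample centred on its median and when DMSO replicate 2, DMSO replicate 3, NTX-301 replicate 1 or NTX-301 replicate 2 was left out, with 0.050, 0.067, 0.058 and 0.062 in the latter cases.

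In MOLM-13 the IKZF1 DMSO samples read 14.21, 14.23 and 14.20, the DAC samples 14.13, 14.15 and 14.14, and the NTX-301 samples 14.23, 14.23 and 14.23. Every DAC sample lay below every DMSO sample, and NTX-301 overlapped DMSO. IKZF1 fell by 0.070 ± 0.020 under DAC (limma adjusted p = 0.01547), but quantile normalization gave 0.021 with an adjusted p of 0.392, and without DMSO replicate 2 the value was −0.063 with an adjusted p of 0.0602. Under NTX-301 the difference was 0.014 (limma adjusted p = 0.594). After quantile normalization it was 0.125, which passed.

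IKZF4, which encodes Eos, known from regulatory T cells, passed in no comparison with DMSO. Its HL-60 values lay between 8.37 and 8.45 in DMSO, 8.41 and 8.52 in DAC and 8.37 and 8.42 in NTX-301. Its MOLM-13 values lay between 8.13 and 8.36, 8.24 and 8.34, and 8.30 and 8.37. All groups of a line overlapped. The HL-60 differences from DMSO were 0.052 (95% interval −0.034 to 0.14) under DAC and −0.017 (−0.10 to 0.069) under NTX-301. Those in MOLM-13 were 0.050 (−0.088 to 0.19) and 0.10 (−0.037 to 0.24).

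IKZF5, which encodes Pegasus, read somewhat higher in MOLM-13 and fell with NTX-301 in HL-60. In HL-60 its DMSO samples read 10.70, 10.74 and 10.57, its DAC samples 10.60, 10.63 and 10.61, and its NTX-301 samples 10.56, 10.50 and 10.45. The NTX-301 samples lay below all others. The gene fell by 0.17 ± 0.040 under NTX-301 (limma adjusted p = 0.004028), and its difference under DAC was −0.056 (limma adjusted p = 0.349). In MOLM-13 its DMSO samples read 11.21, 11.28 and 11.29, its DAC samples 11.27, 11.10 and 11.22, and its NTX-301 samples 11.11, 11.12 and 11.23, and the groups overlapped. The differences there were −0.066 (adjusted p = 0.312) and −0.11 (95% interval −0.21 to −0.0053; limma adjusted p = 0.0818), and the latter passed in 4 of 17 alternatives, among them without DAC replicate 2 and without NTX-301 replicate 3.

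IKZF5 overlaps PSTK, a selenocysteine pathway kinase gene on the opposite strand, and whether strand was used in counting is not given in the sources used here. PSTK differed by −0.12 under each drug in HL-60 (limma adjusted p = 0.02002 and 0.01962), and each of these calls held in 13 of 17 alternative analyses. In MOLM-13 its differences were −0.079 and −0.14, and neither passed. The part of shared reads in the IKZF5 values was not tested.

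**Figure D2:**
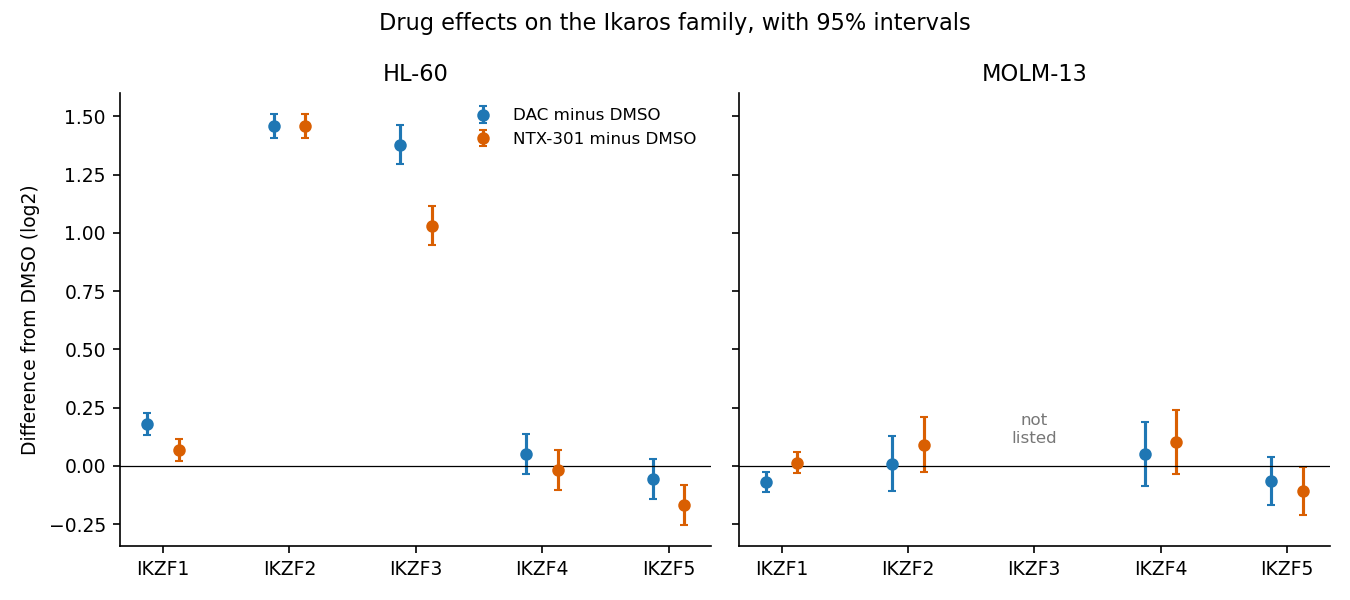
Difference from DMSO of each Ikaros family gene on the log2 scale (points) with its 95% interval (bars, limma, n = 3 per group), for DAC and NTX-301 in each line. IKZF2 (1.46 and 1.46, a description) and IKZF3 (1.38 and 1.03) stand above 1 in HL-60, and every MOLM-13 point lies between −0.11 and 0.10. The IKZF2 bars serve as no test, since its drug effect was used to select the family.

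Counted over the members with a test, 2 of 4 passed under DAC in HL-60, where 24.2% of all genes did, and 3 of 4 under NTX-301, where 37.4% did. In MOLM-13 1 of 3 passed under DAC, where 36.6% of all genes did. Under NTX-301 limma called 0 of 3, where 45.1% of all genes passed; 1 of the 3, IKZF5, had an unadjusted p under 0.05. The shares of members rest on 3 or 4 genes each.

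**Figure D3:**
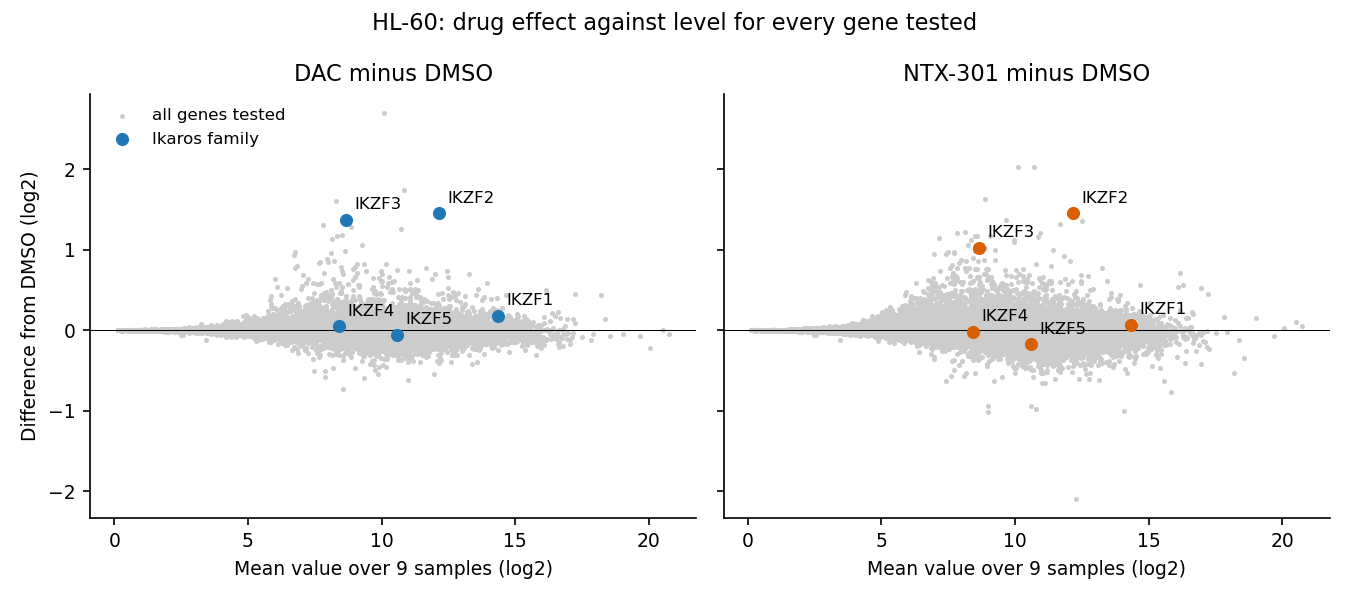
Difference from DMSO against the mean value over 9 samples, both on the log2 scale, for all 17046 HL-60 genes tested (grey) and the 5 Ikaros family genes (coloured), for DAC and NTX-301. IKZF2 lies at 1.46 in both panels and IKZF3 at 1.38 and 1.03, IKZF1, IKZF4 and IKZF5 lie within the cloud, and low genes are compressed towards 0.

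The drugs were then compared directly, 1 pair in each line and 2 pairs in all, with p-values adjusted over all genes of a line. In HL-60, IKZF2 differed by 0.0003 between NTX-301 and DAC, with a 95% interval of −0.052 to 0.052 (limma adjusted p = 0.996). The interval leaves room for a difference of that size in either direction. IKZF3 was lower under NTX-301 than under DAC by −0.35 (95% interval −0.43 to −0.26; limma adjusted p = 1.376e-05). No IKZF3 value under NTX-301 reached the lowest under DAC.

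IKZF1 was lower under NTX-301 by −0.11 (95% interval −0.16 to −0.065; limma adjusted p = 0.001594), and quantile normalization gave −0.068 with an adjusted p of 0.0557. IKZF5 was lower by −0.11 (95% interval −0.20 to −0.027; limma adjusted p = 0.04597), a call that held in 9 of 17 alternatives and ended, among others, without any 1 of the DAC samples, DMSO replicate 1, NTX-301 replicate 2 or NTX-301 replicate 3, with values from −0.12 to −0.089. IKZF4 differed by −0.069 (95% interval −0.16 to 0.017; limma adjusted p = 0.221) and passed only with every sample centred, at −0.10 with an adjusted p of 0.0407. In all, 3 of 5 members passed in HL-60, where 30.4% of all genes did.

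In MOLM-13 1 of 4 members passed, where 7.42% of all genes did. IKZF1 was higher under NTX-301 than under DAC by 0.084 (95% interval 0.041 to 0.13; limma adjusted p = 0.02643), and each NTX-301 sample lay above each DAC sample. That call ended when DAC replicate 1, DAC replicate 3 or any 1 of the NTX-301 samples was left out, with values from 0.078 to 0.085. It also ended in a fit of only the 2 groups (adjusted p = 0.0514) and with a replicate block (adjusted p = 0.0727). IKZF2 differed by 0.081 (95% interval −0.038 to 0.20; adjusted p = 0.413), IKZF4 by 0.051 (−0.087 to 0.19) and IKZF5 by −0.043 (−0.15 to 0.061). The IKZF2 interval in MOLM-13 is wider than in HL-60 and overlaps the HL-60 interval, but begins above its lower end. These intervals come from separate fits, and the difference between the lines was not tested.

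**Figure D4:**
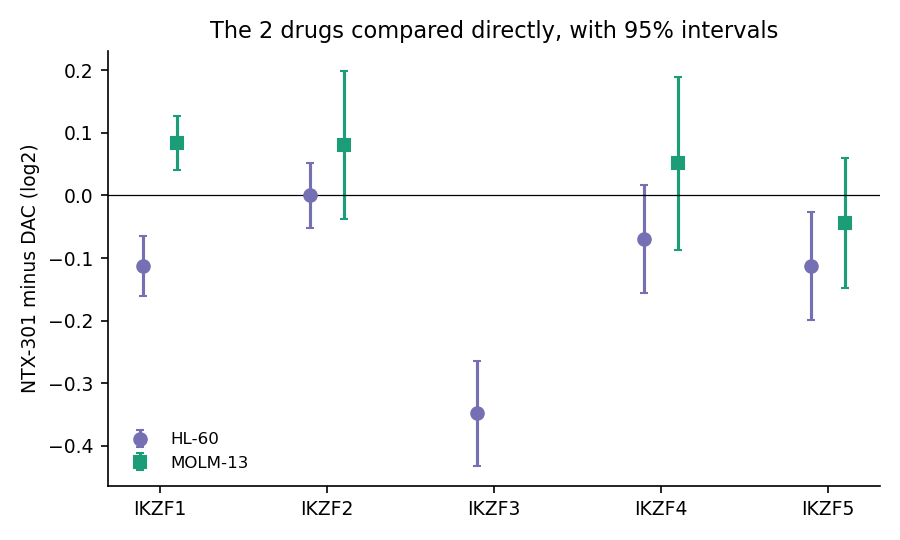
NTX-301 minus DAC on the log2 scale for each Ikaros family gene (points) with its 95% interval (bars, limma, n = 3 per group) in HL-60 and MOLM-13; IKZF3 was not listed for MOLM-13. IKZF3 in HL-60 stands lowest at −0.35, IKZF2 in HL-60 sits at 0.0003, and IKZF1 is below 0 in HL-60 and above 0 in MOLM-13.

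Between the lines, IKZF2 was the member set apart in DMSO. The differences of the others, MOLM-13 minus HL-60, were −0.055 for IKZF1, −0.17 for IKZF4 and 0.59 for IKZF5, against −4.81. IKZF1 stood between percentiles 97.0 and 97.3 of the shared genes in HL-60 DMSO and between 96.0 and 96.1 in MOLM-13 DMSO. IKZF4 stood between 37.0 and 37.5 and between 33.0 and 34.4, and IKZF5 between 56.8 and 59.1 and between 62.3 and 63.5. These are descriptions, since the lines appear to have been normalized apart.

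The genes whose drug response was most like that of IKZF2 were found by the root mean square difference over the 12 treated samples, each value taken relative to the DMSO mean of its line. Among 15473 other genes the nearest were THSD7A, a membrane glycoprotein gene (0.25), CPXM1, a carboxypeptidase-like gene (0.31), RHEX, a regulator of erythroid expansion (0.33), APOC2, an apolipoprotein gene (0.36), and GATA2, a transcription factor of blood stem and progenitor cells (0.37). They were picked for this likeness, so their values carry no test. Under DAC in HL-60 they differed from DMSO by 1.17, 1.07, 1.26, 0.86 and 0.78 in that order, and under NTX-301 by 1.12, 0.996, 2.03, 1.06 and 1.33. RHEX, GATA2 and APOC2 stood higher under NTX-301 than under DAC, THSD7A and CPXM1 slightly lower, and IKZF2 level. In MOLM-13 the 5 genes lay between −0.035 and 0.20 under both drugs.

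**Figure D5:**
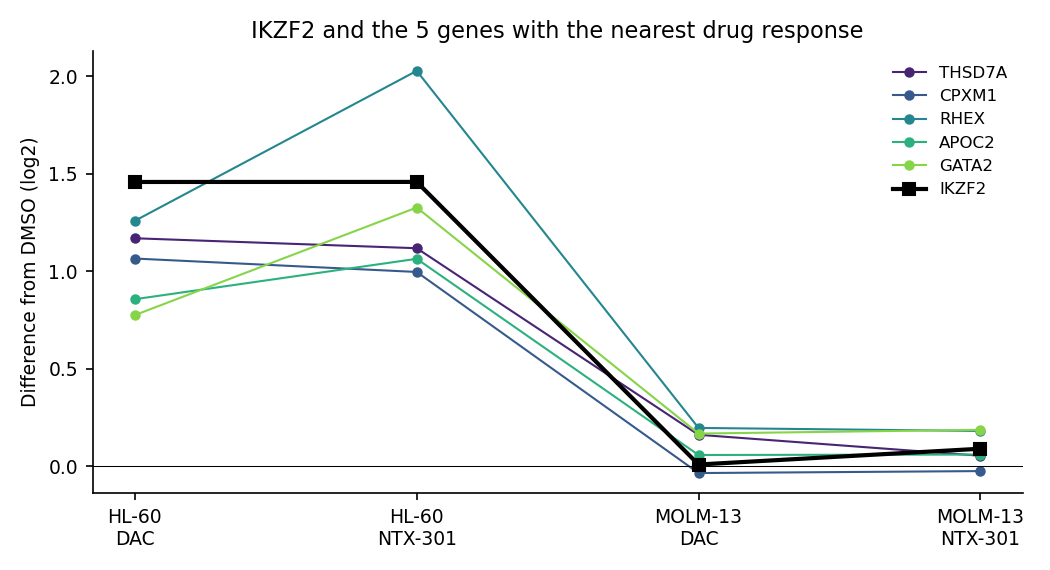
Difference from DMSO on the log2 scale (mean of 3 samples) for IKZF2 (black squares) and the 5 genes with the smallest root mean square difference from it over 12 treated samples; lines join the values of 1 gene and mark no order. The 6 genes lie between 0.78 and 2.03 in HL-60 cells and between −0.035 and 0.20 in MOLM-13 cells.

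Within HL-60 alone, over 6 treated samples and 17045 other genes, the nearest to IKZF2 were KCNH2, a potassium channel gene (0.19), CR1, a complement receptor gene (0.29), HK3, a hexokinase gene of myeloid cells (0.29), IKZF3 (0.31) and THSD7A (0.32). IKZF3 was thus 4th in this order. The search rests on the drug effect that was used to select the family, and its genes were picked for likeness. Their nearness therefore carries no test. KCNH2 differed from DMSO by 1.28 under DAC and 1.64 under NTX-301, CR1 by 1.19 and 1.17, and HK3 by 1.75 and 1.16. The genes nearest to IKZF3, a search added after its values were seen, were THSD7A (0.17), CR1 (0.19), CPXM1 (0.23), HK3 (0.28) and NEB, the nebulin gene (0.30). In MOLM-13 alone the nearest gene to IKZF2 was ZFP36L1, an RNA-binding protein gene, at 0.021, where both genes lay close to 0.

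Genes beside the members on the chromosome were read to see whether they moved too, a choice made after the values were seen. Of the 6 listed genes nearest to IKZF2 in HL-60, 3 on either side, 3 passed under DAC and 2 under NTX-301, with differences from 0.0031 to 0.38. ERBB4, a receptor tyrosine kinase gene, rose by 0.38 under DAC (limma adjusted p = 1.496e-05) and by 0.18 under NTX-301 (adjusted p = 0.002879); quantile normalization gave 0.11 with an adjusted p of 0.0673 for NTX-301. LOC102725082 rose by 0.26 and 0.24 (limma adjusted p = 5.85e-04 and 4.06e-04). BARD1, on the other side, differed by 0.030 and 0.012 and did not pass. Of the 6 listed genes nearest to IKZF2 in MOLM-13, limma passed 2 under each drug, with differences of all 6 from −0.61 to 0.16. Those that passed were ERBB4, which fell by 0.53 and 0.61, and BARD1, which fell by 0.20 and 0.19.

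The 6 listed neighbours of IKZF3 in HL-60, among them the ERBB2, ORMDL3 and GSDMB genes, lay between −0.098 and 0.074 with either drug, and limma called 0 of 6 under each. IKZF3 itself differed by 1.38 and 1.03. Of the 6 neighbours of IKZF1, 2 passed under each drug in HL-60. Of its 6 neighbours listed for MOLM-13, 3 passed under DAC and 4 under NTX-301. For IKZF4 the counts of 6 were 3 under DAC and 4 under NTX-301 in HL-60 cells, and 4 and 3 in MOLM-13 cells. For IKZF5 they were 1 and 3, and then 1 and 1. The shares of all genes that passed were 24.2% and 37.4% in HL-60 cells, and 36.6% and 45.1% in MOLM-13 cells, so counts of 2 of 6 lie near them.

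Partners, degraders and targets of the family were counted from 6 lists. A gene is counted as higher or lower where limma passed it over all genes. The share of all genes called higher and lower was 11.6% and 12.6% under DAC and 18.3% and 19.2% under NTX-301 in HL-60. In MOLM-13 it was 15.4% and 21.2% under DAC and 20.3% and 24.8% under NTX-301. These splits depend on scaling: with every sample centred on its median, calls went from 3115 higher and 3265 lower to 2270 and 6053 under NTX-301 in HL-60. In MOLM-13 they went from 2689 and 3705 to 1960 and 5731 under DAC and from 3543 and 4337 to 2735 and 5760 under NTX-301.

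Of 13 genes of NuRD, the chromatin remodelling complex that Ikaros proteins recruit, 5 were higher and 3 lower under DAC in HL-60, and 5 and 2 under NTX-301. In MOLM-13 3 were higher and 8 lower under each drug, but quantile normalization left 3 and 4 lower. In HL-60 the list's median difference was −0.016 under DAC and 0.042 under NTX-301, and in MOLM-13 it was −0.11 and −0.12, beside medians of all genes between 0.0006 and 0.0034. MTA3, a subunit known from B cells, rose in all 4 comparisons, by 0.28 and 0.48 in HL-60 and by 0.35 and 0.43 in MOLM-13. CHD3, a remodelling ATPase of the complex, rose by 0.14 and 0.26 in HL-60 and by 0.14 and 0.13 in MOLM-13. RBBP7, a histone-binding subunit, fell in MOLM-13 by 0.28 and 0.26, and MTA2 by 0.18 and 0.21.

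Of the 4 CtBP and SIN3 corepressor genes, 0 were higher and 2 lower under DAC in HL-60 by limma, and 1 and 1 under NTX-301. In MOLM-13 1 was higher and 2 lower under DAC, and 1 and 1 under NTX-301. SIN3B rose by 0.22 under NTX-301 in HL-60 and by 0.20 and 0.16 in MOLM-13. CTBP1 fell under DAC by 0.12 in HL-60 cells, where its NTX-301 difference was −0.043 and did not pass. In MOLM-13 cells it fell by 0.16 under DAC and by 0.15 under NTX-301, and quantile normalization ended the latter call at −0.051 with an adjusted p of 0.162. CTBP2 fell by 0.080 under DAC and by 0.13 under NTX-301 in HL-60 cells. The CTBP2 call under DAC held in 11 of 17 alternatives and ended, among others, without DMSO replicate 1 or 2 or DAC replicate 1 or 3, the last of these at −0.059.

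Of the 5 genes of the cereblon ubiquitin ligase, 1 was lower under DAC in HL-60 and 3 were lower under each drug in MOLM-13, with 0 higher by limma. Under NTX-301 in HL-60, CUL4B, a cullin scaffold, rose by 0.18 and DDB1, the adaptor, fell by 0.10. DDB1 also fell in MOLM-13, by 0.10 under DAC and 0.15 under NTX-301. CRBN, the substrate receptor through which thalidomide analogues reach Ikaros and Aiolos, differed by −0.10 and −0.088 in HL-60 and by −0.12 and −0.044 in MOLM-13. It passed in none of the 4 comparisons (limma adjusted p = 0.0558, 0.0761, 0.0622 and 0.450), and it passed in 3, 5, 4 and 0 of 17 alternatives each. RBX1, the RING subunit, fell in MOLM-13 by 0.20 and 0.26.

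Of 7 listed genes for other proteins that thalidomide analogues send to cereblon, limma called 0 higher and 2 lower under DAC in HL-60 and 1 and 2 under NTX-301. In MOLM-13 it called 0 higher and 1 lower under each drug. The gene in MOLM-13 was GSPT1, a translation termination factor, which fell by 0.17 under both drugs there and by 0.16 under NTX-301 in HL-60.

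Of 14 genes known as Ikaros targets in lymphocytes, 9 were listed in each line, but not the same 9, so the medians cover slightly different sets. In HL-60 5 were higher and 1 lower under DAC, and 5 and 2 under NTX-301, with medians of 0.12 and 0.13. In MOLM-13 3 were higher and 4 lower under DAC, and 2 and 3 under NTX-301, with medians of −0.061 and 0.046, and quantile normalization left 1 lower under each. CCND2, a D-type cyclin gene, rose by 0.42 and 0.39 in HL-60 and by 0.20 and 0.16 in MOLM-13. IGLL1, part of the surrogate light chain of pre-B cells, rose by 0.15 and 0.42 in HL-60 and fell by 0.71 and 0.56 in MOLM-13. CCND3, another D-type cyclin gene, rose by 0.15 under DAC and 0.60 under NTX-301 in HL-60. In MOLM-13 CCND3 fell by 0.11 and 0.13, both past the test. INPP5D, a lipid phosphatase gene, differed by −0.15 under DAC and 0.087 under NTX-301 in HL-60, both past the test. Its MOLM-13 differences were −0.0735, which passed, and 0.046, which did not. The MOLM-13 falls of CCND3 and INPP5D were not kept after quantile normalization.

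Of 5 genes tied to Helios in KMT2A-MLLT3 leukaemia, 4 were listed for HL-60 and all for MOLM-13. In HL-60 1 was higher and 1 lower under DAC, and 1 and 3 under NTX-301. In MOLM-13 2 were higher and 2 lower under DAC, and 1 and 1 under NTX-301. CEBPE, a factor of late granulocyte maturation, rose by 0.19 and 0.14 in HL-60 and by 0.66 and 0.30 in MOLM-13. MYC fell by 0.25 under NTX-301 in HL-60 (limma adjusted p = 2.467e-07) and differed by −0.055 under DAC (adjusted p = 0.0572). It fell by 0.13 and 0.15 in MOLM-13, where quantile normalization gave −0.027 and −0.021 and ended both calls. CEBPA fell by 0.18 and 0.15 in HL-60.

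The labelled cell type was checked against markers. All 5 granulocyte precursor markers were listed in both lines, and 3 of 6 monocyte markers in HL-60 and 4 of 6 in MOLM-13, with CD14 and FCN1 in neither. Of 6 T lymphocyte markers 1 was listed in each line (CD247 near 3.9 in HL-60, CD3D near 7.5 in MOLM-13 DMSO), and of 3 regulatory T cell markers 0 and 1. FOXP3 and CD3E, which define these T cells, were in neither table, and neither was MS4A1, a B cell marker. CD79A, another B cell marker, was listed for HL-60, and its linear level lay between 85.6 and 87.0 in DMSO, 89.9 and 90.6 in DAC and 108.7 and 116.0 in NTX-301. PAX5, a B cell transcription factor, was listed for MOLM-13 at log2 means of 4.99, 5.02 and 5.05.

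The summed linear level of the granulocyte markers in HL-60 lay between 523312 and 556375 in DMSO, 520915 and 522125 in DAC and 402528 and 412026 in NTX-301. MPO weighs most in that sum, with log2 means of 18.71 in DMSO and 18.64 in DAC. ELANE, PRTN3, AZU1 and CTSG read higher in DAC (14.29, 16.13, 13.0 and 13.81) than in DMSO (14.26, 16.07, 12.8 and 13.73). Every listed granulocyte marker read lower in NTX-301 than in DMSO. The summed level of the monocyte markers there lay between 5071 and 5232 in DMSO, 6019 and 6312 in DAC and 4854 and 5052 in NTX-301. LYZ weighs most in that sum, with log2 means of 12.28, 12.53 and 12.21. CSF1R (6.6, 6.68 and 7.02) and CD68 (6.8, 7.0 and 6.98) read higher than in DMSO with both drugs. In MOLM-13 the monocyte sum lay between 91855 and 96902 in DMSO, 157762 and 170465 in DAC and 101656 and 107169 in NTX-301. The granulocyte sum there lay between 200279 and 208760, 217628 and 240223, and 199117 and 217652. The T lymphocyte sum in HL-60 lay between 14.6 and 15.4 in all 3 groups. In MOLM-13 that sum, which is CD3D alone, lay between 166.9 and 187.8 in DMSO, 185.2 and 197.8 in DAC and 205.2 and 219.2 in NTX-301. The regulatory T cell marker listed there, IL2RA, lay between 169.9 and 181.2, 198.8 and 229.0, and 192.4 and 217.5. The part of these shifts in the family's values was not tested, and a change in cell makeup and a change in RNA per cell cannot be told apart.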

How the data were processed

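RNA of 18 samples was measured by stranded total RNA sequencing. The authors deposited 1 normalized log2 value per gene and sample, and the normalization method is not given in the sources used here. Per the submitters' processing notes, FastQC, Trimmomatic 0.38, HISAT2 and StringTie were used with hg19. The tables list genes without coordinates, and depth is unknown, so precision rests on the spread between 3 replicates.

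Differences were tested on the deposited log2 values with limma 3.58.1 in R 4.3.3 (lmFit, eBayes with trend, two-sided), with 9 samples of a line in 1 fit and Benjamini-Hochberg adjustment over 17046 (HL-60) and 17475 (MOLM-13) genes. Genes needed a linear value of at least 1 in 3 samples, and the threshold was an adjusted p of 0.05. The steps were tested on simulated data. Members, lists and tests were chosen with earlier results of these data known. Named genes were the 5 members and, per list and comparison, up to 2 genes with the lowest adjusted p. CRBN, MYC and CEBPE were named too, as were the 5 genes nearest to IKZF2, in both lines or in 1. A gene named for 1 comparison may be given in others, but not always in all. Neighbouring genes, PSTK and the genes nearest to IKZF3 were chosen after their values were seen. Alternatives were sample centring, quantile normalization, other filters, no variance trend, 2 groups only, a replicate block, a pseudocount of 1 and leaving out each replicate. Some sequences and markers are not reported here.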

Additional observations from a re-analysis of the deposited data

Results flagged for a closer look

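IKZF1 moved in opposite directions under DAC in the lines: it differed from DMSO by 0.18 in HL-60 and by −0.070 in MOLM-13, and all 3 DAC samples of each line lay on their own side of the DMSO mean. The difference between the lines was not tested. Quantile normalization turned the MOLM-13 value to 0.021.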

How the results depend on the processing

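In HL-60 IKZF3 kept its call in all 3 comparisons, IKZF1 under DAC and IKZF5 under NTX-301 against DMSO, each in 17 of 17 alternatives. Quantile normalization left 1 member called for NTX-301 against DAC in HL-60 (3 in the main analysis), 0 for DAC against DMSO in MOLM-13 (1) and 1 for NTX-301 against DMSO in MOLM-13 (0). For that last comparison centring and a fit of only its 2 groups also gave 1. For NTX-301 against DAC in MOLM-13 a fit of 2 groups gave 0 (1 in the main analysis). Leaving out 1 replicate, the 3 MOLM-13 counts ranged from 0 to 1; the DAC count was 0 without DMSO replicate 2, and the NTX-301 against DMSO count was 1 without DAC replicate 2 or NTX-301 replicate 3.

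The level difference of IKZF2 between the lines was −5.11 with centring and −5.03 with quantile normalization, and its NTX-301 effect difference −1.45 with the latter. Signs turned for small values: IKZF2, NTX-301 minus DAC in HL-60 (−0.034 with centring, −0.0107 to 0.019 leaving out 1 replicate, with −0.0093, −0.0033 and −0.0076 among these); IKZF1 in MOLM-13 (0.021 under DAC with quantile normalization, −0.016 under NTX-301 with centring); IKZF4 in MOLM-13 (−0.044 and −0.0045 with quantile normalization, −0.0073 to 0.1104 under DAC leaving out 1 replicate, the lowest without DMSO replicate 3); and IKZF4 under NTX-301 in HL-60 (−0.0378 to 0.0015 leaving out 1 replicate, the highest without DMSO replicate 1). The cause was not tested. Of counts, those of the 6 lists included, 803 stayed within 1.5 times and 115 did not.

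Equal replicate numbers were not stated to pair samples, and their deviations correlated between −0.16 and 0.118; 6 of 9 HL-60 and 1 of 9 MOLM-13 samples correlated best with their own number. With a replicate block, the count for NTX-301 against DAC in MOLM-13 was 0, with IKZF1 at an adjusted p of 0.0727, and no other count of called members changed by over 1.5 times. Unknown depth and low values drawn to their mean limit what can be read of IKZF2 in MOLM-13.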
